A study of Mus musculus with 8 samples.

Results

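Fibronectin, collagens, laminins, nidogen, integrin chains, matrix metalloproteases (MMPs), their inhibitors (TIMPs) and ADAMTS proteases were examined in the liver of mice lacking Eps8. The genes were taken by symbol, a choice made with earlier results of these data known. Of 8789 named genes on the array, 71 carried such a symbol, with 115 probes. Liver RNA came from 4 male Eps8KO mice aged 17 weeks, and was compared on 2-colour cDNA arrays with 1 RNA pool from WT males of the same age. The mutants were whole-body knockouts bred onto C57BL/6, and mutant and WT animals came from crosses of heterozygous parents. Each Eps8KO mouse was hybridised to 2 arrays, with its RNA labelled with Cy5 on the first and with Cy3 on the second, which gave 8 arrays. The animals listed for the WT pool number 5, but other labels of the series give other numbers. The pool counts as 1 control sample, so every test below leaves out the spread between WT mice.

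The extracellular matrix is the mesh of proteins that surrounds cells. Fibronectin, encoded by Fn1, is secreted by hepatocytes into plasma in large amounts and is also laid down as fibrils in the matrix, where it binds collagen. Collagens and laminins form interstitial fibres and basement membranes. Integrins are pairs of an alpha and a beta chain that span the cell membrane, bind these proteins outside the cell and connect to the actin cytoskeleton inside it. MMPs and ADAMTS proteases cleave matrix proteins, and TIMPs block them. In liver, collagens and TIMPs come largely from stellate cells. Eps8 itself is a protein that binds and remodels actin filaments.

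Levels are given as the log2 ratio of Eps8KO over the WT pool, in which 0 stands for no difference, a negative value for a lower level in Eps8KO liver, and a value of 1 for a doubling. The 2 arrays of a mouse were averaged, then the probes of a gene, and the spread is that between mice (SD, n = 4). A feature entered limma's test against 0 if each of the 4 mice had a value, which 15455 features met, 65 of the 71 genes among them. Some properties of the arrays touch each result. Gene names rest on a shift of 32 between the row numbers of the values and the probe numbers of the platform. This shift was found from the values in an earlier analysis, in which the study's list of changed genes, Fn1 included, took part. The sources used here give the dye of each RNA but do not state that the values are Cy5 over Cy3, so the direction is likely and not settled. Ratios from arrays with the mutant labelled by Cy3 were multiplied by -1. Between both arrays of the same mouse, r then lay between -0.14 and -0.0684 over all features, whereas arrays of the same dye orientation from different mice correlated with r from 0.0818 to 0.204. Array medians ran from -0.28 to -0.077 and 48 to 103 values per array stood at an upper limit 16.61 above the most frequent value of that array. The 71 genes held 3 values at that limit. Eps8 had 0 named probes, so loss of the targeted transcript was not checked.

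Fn1 had a lower level in all 4 Eps8KO mice. Its log2 ratio was -0.44, -0.43, -0.64 and -0.90 in mice 1 to 4, with a mean of -0.61 ± 0.22 (SD, n = 4), that is 1.52-fold lower than in the WT pool. The 95% confidence interval of the mean was -0.97 to -0.24. With limma, Fn1 passed an unadjusted p under 0.05 but not after adjustment over all features (adjusted p = 0.838), and the mean computed here was under 1.6-fold. With 4 mice, an exact two-sided sign-flip test gave p = 0.125, which is the smallest it can give. The study listed Fn1 as changed on these same arrays, so its direction is no independent evidence.

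Fn1 was represented by 5 probes with values on all 8 arrays. The mean ratios of probes 1 to 5 were -0.68, -0.64, -0.63, -0.52 and -0.56, so all 5 lay below 0 and differed by less than the spread between mice. The probes of Fn1 agreed closely within an array, with a mean SD of 0.264 across them, the second lowest of the 26 genes with several probes. The median of these genes was 0.823, the highest 2.56 and the lowest that of Col18a1 at 0.238.

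The ratio of Fn1 differed between the dye orientations. With the mutant RNA in Cy5 it was -0.045, 0.15, -0.08 and 0.15 for mice 1 to 4, with a mean of 0.044 ± 0.12 (SD, n = 4). With the mutant RNA in Cy3 it was -0.84, -1.02, -1.20 and -1.95, with a mean of -1.26 ± 0.49 (SD, n = 4). The arrays of the 2 orientations did not overlap. Each mouse had all 5 probes in both orientations, so an additive dye offset cancels in the mean. The limma fit of the 8 arrays with a dye term therefore has the same ratio of -0.61 by design. It can differ only in its error (SE 0.133, adjusted p = 0.242). With each array set to a median of 0, the means were 0.18 and -1.43. If the deposited values already were Eps8KO over WT, so that no sign had to be turned, Fn1 would be at 0.65, above the pool.

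**Figure D1:**
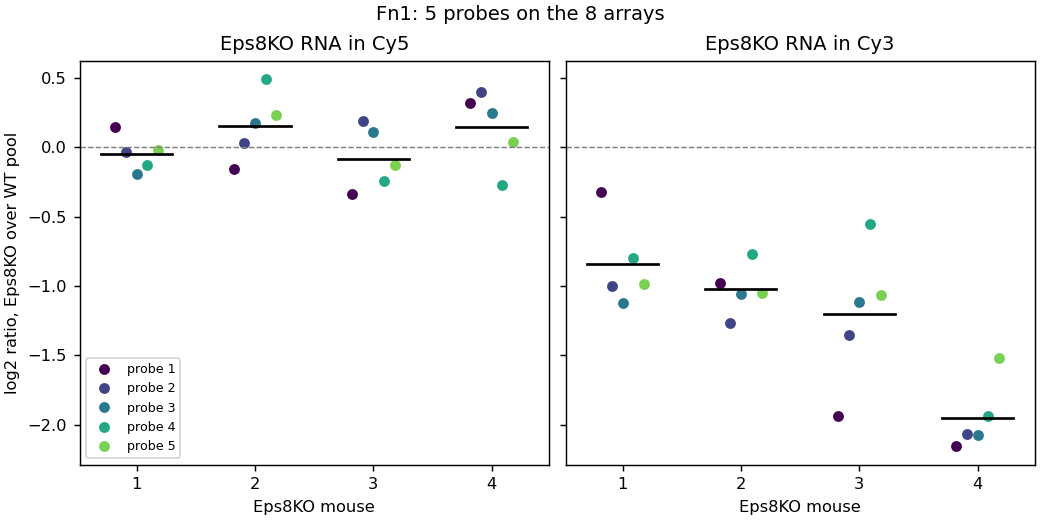
The log2 ratio of Fn1 in Eps8KO liver over the WT pool (vertical axis) is plotted for each of 5 probes (coloured points) and each mouse (horizontal axis), on arrays with Eps8KO RNA in Cy5 (left) and in Cy3 (right); black bars are the mean of the probes on an array. On the left the array means lie between -0.08 and 0.15, and on the right between -1.95 and -0.84.

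Across the 65 tested genes, few differed from the pool. With limma, 0 passed an adjusted p under 0.05, as did 0.0% of all features. At an unadjusted p under 0.05, Adamts1 was higher and Fn1 lower, which makes 2 of 65 genes beside 5.25% of all features (2.15% higher and 3.09% lower). At 1.6-fold and an unadjusted p under 0.05 there were 0 genes, beside 2.63% of all features (1.06% higher and 1.57% lower). The direction was the same in all 4 mice for 6 of 65 genes, beside 14.6% of all features (7.54% higher and 7.07% lower). Mmp7, Adamts1 and Timp2 were above 0 in 4 of 4 mice, and Fn1, Mmp17 and Lamb2 below 0 in 4 of 4. None of these shares exceeded that of all features. A limma fit of the 8 arrays with a dye term had 3 of 54 genes at an unadjusted p under 0.05, Adamts1 higher and Fn1 and Mmp17 lower, beside 6.63% of its features.

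The mean ratio was above 0 in 36 genes and below 0 in 29, with a median of 0.043 beside 0.017 for all features, and the median within a mouse ran from -0.012 to 0.066. The SD between mice ran from 0.0725 to 3.92, with a median of 0.464, close to the median of 0.434 over all features. For 28 of 65 genes the 95% confidence interval lay within 1.6-fold either way, beside 43.1% of all features. For the other genes the interval reached past 1.6-fold. The analysis was of whole liver, so fewer cells of a type and less RNA per cell cannot be told apart.

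**Figure D2:**
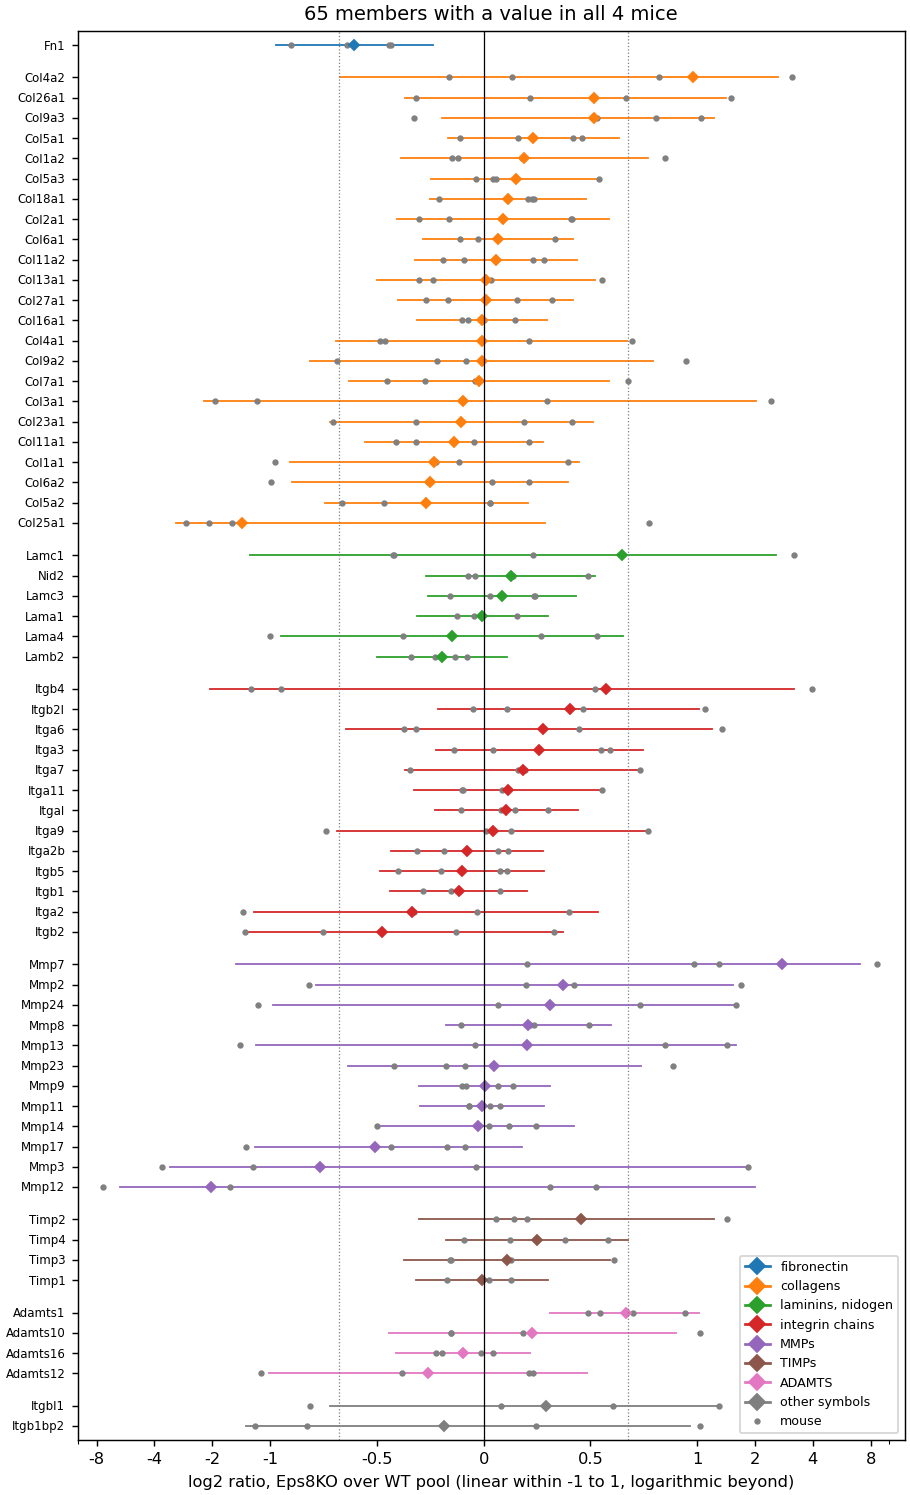
The log2 ratio of Eps8KO over the WT pool (horizontal axis, linear between -1 and 1 and logarithmic beyond) is plotted for the 65 genes with a value in all 4 mice, with each mouse as a grey point, the mean as a diamond and the 95% confidence interval from limma as a line; dotted lines mark 1.6-fold. The intervals of Fn1 and Adamts1 alone lie on 1 side of 0.

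Collagen genes lay on both sides of 0. Of 24 collagen genes 23 were tested, 12 with a mean above 0 and 11 below, with a median of 0.0097, and 0 passed an unadjusted p under 0.05 with limma, beside 5.25% of all features. The direction was the same in all 4 mice for 0 of the 23, beside 14.6% of all features, and for 11 the 95% confidence interval lay within 1.6-fold. Among the 10 fibrillar collagen genes, which build the interstitial fibres, means ran from -0.27 to 0.23. Col1a1 and Col1a2, the chains of type I collagen, were at -0.23 ± 0.57 and 0.19 ± 0.46 (SD, n = 4), on opposite sides of 0. The positive mean of Col1a2 rests largely on its probe 3, at 0.96, whose value in mouse 4 is 4.375 from a Cy3 array alone. The other probes of Col1a2 were at 0.043, -0.11 and -0.13. Col3a1, the chain of type III collagen, was at -0.096 ± 1.92, with mice from -1.95 to 2.43. The highest of these, mouse 1, also rests on a Cy3 array alone, and the orientation means of Col3a1 were -3.02 in Cy5 and 1.47 in Cy3. Col4a1 and Col4a2, which make up the common type IV collagen of basement membranes, were at -0.0095 ± 0.57 and 0.98 ± 1.49. The 4 probes of Col4a1 had means from -0.49 to 1.03. They differed within an array by a mean SD of 2.33, from the 2 arrays with all probes. Its probe 3 was at 3.645 in mouse 2 and its probe 4 at 3.505 in mouse 3, both from a Cy3 array alone. Col4a2 had no Cy5 array in mouse 1, whose 3.13 is a Cy3 value alone. On the Cy3 arrays of the other mice Col4a2 was at 3.87, 2.96 and 2.61, and on their Cy5 arrays at -3.61, -3.28 and -0.97, so mouse 1 did not stand apart within its orientation. Col18a1, the source of endostatin, was at 0.12 ± 0.22, with its 2 probes close together. It stood on opposite sides of 0 in the dye orientations, at 0.80 with Eps8KO RNA in Cy5 and at -0.57 with it in Cy3. The lowest mean of a collagen was that of Col25a1, a membrane collagen, at -1.41 ± 1.53, measured on 6 of 8 arrays and above 0 in mouse 2. Mice 1 and 4 had a Cy5 array alone for Col25a1, and the orientation means were -2.25 in Cy5 and 1.03 in Cy3, on opposite sides of 0. Col14a1 had values in 2 mice, at a mean of -1.06, and was not tested.

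Laminins and nidogen of basement membranes had 6 genes, all tested, with means from -0.19 to 0.65 and a median of 0.041. Lamb2, the laminin beta 2 chain, was at -0.23, -0.14, -0.34 and -0.08 in mice 1 to 4. It was below 0 in each mouse, with a mean of -0.19 ± 0.11 (SD, n = 4), and did not pass with limma (adjusted p = 0.906). Lamb2 was at -0.074 with Eps8KO RNA in Cy5 and at -0.32 with it in Cy3, below 0 in both orientations. Lama1, Lama4 and Lamc3 were at -0.0055, -0.15 and 0.088, and Nid2, which links laminin to type IV collagen, at 0.13. Lamc1, the common gamma chain, was at 0.65 and owed this to 1 value at the upper limit, without which it was at 0.096.

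Of 16 integrin genes, 13 were tested and 0 passed an unadjusted p under 0.05 with limma. The 8 alpha chains had a median of 0.11 and the 5 beta chains of -0.10. Itgb1, the beta chain shared by most receptors for collagen, laminin and fibronectin, had 6 probes. It was at -0.15, -0.11, -0.28 and 0.077 in mice 1 to 4, with a mean of -0.12 ± 0.15 (SD, n = 4) and a 95% confidence interval of -0.44 to 0.21, which lies within 1.6-fold. Each of its 6 probes had a mean below 0, from -0.21 to -0.032. Its probes differed more within an array than those of Fn1, with a mean SD of 0.801 across them, and with Eps8KO RNA in Cy5 its ratio was 0.064 against -0.30 with it in Cy3.

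Among the other integrin chains, Itga3 was at 0.26 ± 0.36 and Itgb5 at -0.10 ± 0.24. The leukocyte chains Itgb2 and Itgal were at -0.48 ± 0.74 and 0.11 ± 0.17, and the platelet chain Itga2b at -0.08 ± 0.20. Itgb4, a chain of hemidesmosomes, was at 0.57 ± 2.40, with mouse 2 at 3.97 and mouse 1 at -1.25. Itgav, the alpha V chain, which pairs with several beta chains to bind fibronectin and vitronectin, had the lowest mean of the group, at -1.51, with -2.04, -1.53 and -0.95 in mice 1, 3 and 4. Each value is that of 1 array, and it had no value in mouse 2, so it was not tested. Itga4 and Itgb7, also with values in 3 mice, were at means of 0.77 and 0.096. Itgbl1, Itgb1bp2 and Itgb3bp carry a symbol that fits the same pattern but are not integrin chains, and Itgbl1 and Itgb1bp2, which were tested, were at 0.29 and -0.19. Itgb3bp had values in 3 mice and was not tested.

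The 12 MMPs varied most between mice, with a median SD of 0.802 and means from -2.04 to 2.77. Mmp7, matrilysin, was at 0.20, 1.30, 0.99 and 8.61 in mice 1 to 4, with a mean of 2.77 ± 3.92 (SD, n = 4; limma adjusted p = 0.906). Its value in mouse 4 came from a value at the upper limit. Without that value mouse 4 was at 0.98 and the mean was 0.87 ± 0.47 (limma adjusted p = 0.745), above 0 in 4 of 4 mice. Mmp7 had values on 5 of 8 arrays, and without the value at the limit they were those with Eps8KO RNA in Cy3. Mmp12, the macrophage elastase, was at -2.04 with a value at the limit and at 0.036 without it.

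Mmp17, an MMP anchored to the membrane, was at -0.17, -0.43, -1.34 and -0.09 in mice 1 to 4. All 4 mice lay below 0, with mouse 3 the lowest, and the mean of -0.51 ± 0.57 (SD, n = 4) did not pass with limma (adjusted p = 0.906). It was below 0 in both orientations, at -0.66 with Eps8KO RNA in Cy5 and at -0.35 with it in Cy3. The gelatinases Mmp2 and Mmp9 were at 0.37 ± 1.03 and 0.0051 ± 0.12, the collagenases Mmp8 and Mmp13 at 0.21 ± 0.25 and 0.20 ± 1.25, and Mmp14, the activator of Mmp2, at -0.028 ± 0.33. For Mmp9 the 95% confidence interval was -0.30 to 0.31, which lies within 1.6-fold.

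Of the TIMPs, Timp2 had the highest mean. It was at 1.43, 0.20, 0.14 and 0.06 in mice 1 to 4, with a mean of 0.46 ± 0.65 (SD, n = 4), and did not pass with limma (adjusted p = 0.906). All 4 mice lay above 0, and mouse 1 stood far above the other mice. Its 2 probes had means of 0.37 and 0.54 but differed within an array by an SD of 1.09. The ratio was at 0.0011 with Eps8KO RNA in Cy5 and at 0.63 with it in Cy3. In mice 2, 3 and 4 the 2 probes lay on opposite sides of 0. The 0.06 of mouse 4 averages a probe at 1.21, from a Cy3 array alone, with a probe at -1.09. Timp1, the TIMP best known for its induction in injured liver, was at -0.0069 ± 0.12, with a 95% confidence interval of -0.32 to 0.30. Timp3, which binds to the matrix, was at 0.11 ± 0.36 and Timp4 at 0.25 ± 0.29.

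Adamts1, a protease that cleaves proteoglycans of the matrix, had the smallest p of all 65 genes. Its log2 ratio was 0.49, 0.70, 0.54 and 0.94 in mice 1 to 4, all above 0, with a mean of 0.67 ± 0.20 (SD, n = 4) and a 95% confidence interval of 0.31 to 1.02. This is 1.59-fold higher than in the WT pool (limma adjusted p = 0.782), and an exact two-sided sign-flip test gave p = 0.125. That is the smallest p this test can give with 4 mice. With Eps8KO RNA in Cy5 the arrays of mice 1 to 4 were at -0.11, 0.51, 0.095 and 0.48, and with it in Cy3 at 1.09, 0.89, 0.99 and 1.40. Adamts1 was above 0 on 7 of 8 arrays, and every array with Eps8KO RNA in Cy3 lay above every array with it in Cy5. It rests on 1 probe. Adamts10, Adamts12 and Adamts16 were at 0.23, -0.26 and -0.096, and Adamts7, with values in 3 mice, at -0.37.

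**Figure D3:**
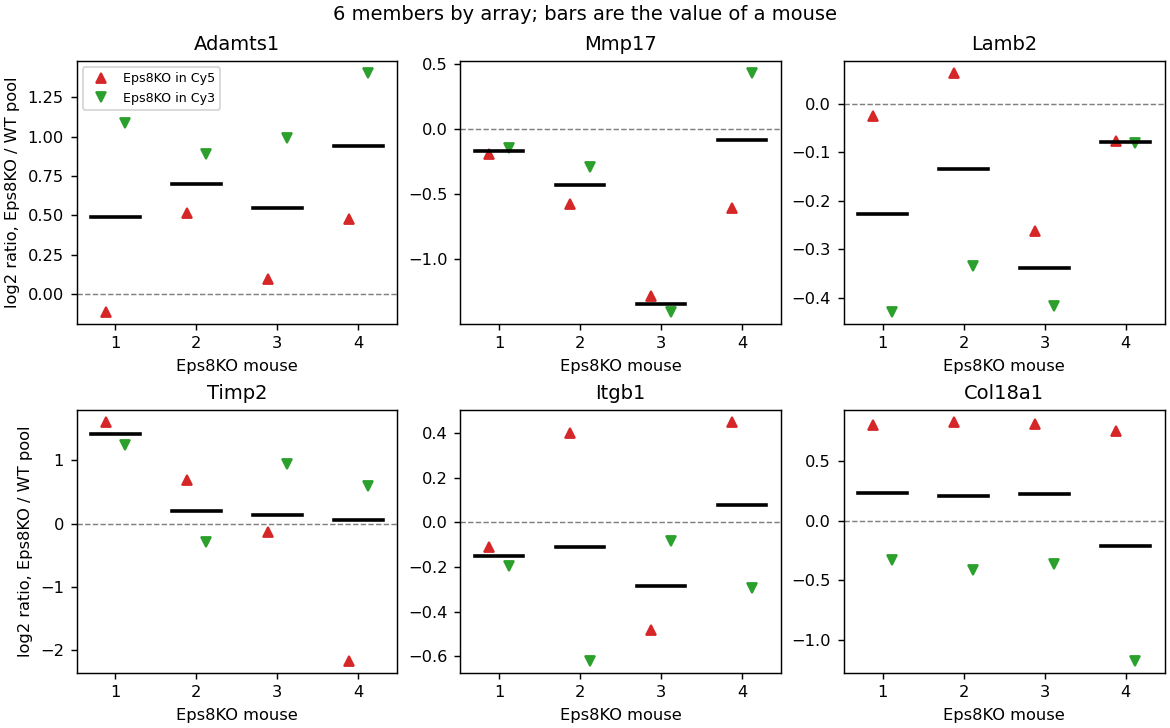
The log2 ratio of Eps8KO over the WT pool (vertical axis, a scale of its own for each gene) is plotted for 6 genes by mouse (horizontal axis), with the array that carried Eps8KO RNA in Cy5 as an upward triangle, the one that carried it in Cy3 as a downward triangle and the value of the mouse as a bar. For Timp2 a probe was missing on some arrays, so the bar is not midway between the triangles. For Col18a1 all 4 Cy5 arrays lie above 0 and all 4 Cy3 arrays below.

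Most of the genes changed side with the dye. The median over the 65 genes was -0.26 with Eps8KO RNA in Cy5 and 0.32 with it in Cy3, beside -0.19 and 0.24 over all features. The means of the orientations had the same sign in 14 of 65 genes, 8 above 0 and 6 below, which is 21.5% beside 28.8% of all features. The ratio was higher with Eps8KO RNA in Cy5 than in Cy3 in 17 of 65 genes (26.2%), Fn1 among them, beside 30.4% of all features. The orientations differed by more than 1 on the log2 scale in 27 of 65 genes, and the median size of the difference was 0.739, beside 0.736 over all features. The difference between the turned orientations was thus about as large in these genes as in all features, and larger than most of the mean ratios given above. In 11 of the 65 genes at least 1 mouse had a single orientation, so that the dye does not cancel in its value. These were Col3a1, Col4a2, Col9a3, Col25a1, Col26a1, Itga7, Itga9, Mmp2, Mmp3, Mmp7 and Mmp12. In other genes, such as Adamts10, Col1a2 and Timp2, a probe lacked 1 orientation in a mouse, so the dye does not fully cancel there either. Every probe had values on all 8 arrays in 41 genes.

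**Figure D4:**
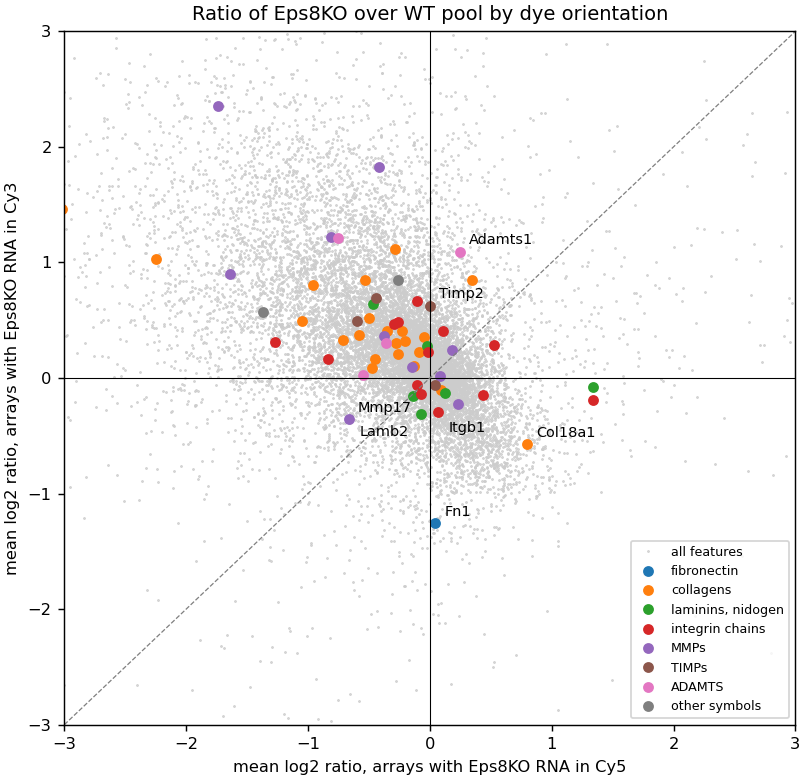
Each gene is placed by its mean log2 ratio of Eps8KO over the WT pool where the Eps8KO RNA carried Cy5 (horizontal axis) and where it carried Cy3 (vertical axis), with all features as small grey points and the genes of each family in colour. The dashed line marks equal values, and Col4a2, Col3a1, Mmp7 and Mmp12 lie outside the plotted range or at its edge. Fn1 lies near 0 on the horizontal axis and at -1.26 on the vertical one.

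Genes around these families were taken from lists chosen by known role. Among 26 other matrix genes, an unadjusted p under 0.05 was reached by 0 with a higher level and by 1 with a lower level, and the median was -0.012. The shares over all features to set beside this count and those of the lists that follow are 2.15% higher and 3.09% lower. The gene that was lower is Vtn, vitronectin, like fibronectin a plasma and matrix protein made by hepatocytes. Vtn was at -0.36, -0.75, -0.48 and -0.82 in mice 1 to 4, all below 0, with a mean of -0.60 ± 0.22 (SD, n = 4; limma adjusted p = 0.838). Like Fn1 it was above 0 with Eps8KO RNA in Cy5 (mean 0.17) and below with it in Cy3 (mean -1.38), and it rests on 1 probe. Sparc, a collagen-binding glycoprotein, was at -0.36 ± 0.35, and Fmod, the proteoglycan fibromodulin, at 0.79 ± 1.06.

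The same counts, 0 higher and 1 lower, were found among 19 genes that fold, modify and cross-link collagen (median 0.082). Colgalt1, which adds galactose to collagen, was at -0.29 ± 0.052 (limma adjusted p = 0.906; 0.13 in Cy5 and -0.72 in Cy3), P4hb, the beta subunit of prolyl 4-hydroxylase, at -0.28 ± 0.18 and P3h1, a prolyl 3-hydroxylase, at 0.61 ± 0.79. None of 16 genes of transforming growth factor beta signalling and its targets passed that threshold (0 in either direction, median 0.10). Ccn2, a matrix-associated target of this pathway, was at -2.10, -0.42, -0.51 and -0.51 in mice 1 to 4, with a mean of -0.88 ± 0.81 (SD, n = 4; limma adjusted p = 0.906). It was at -1.24 with Eps8KO RNA in Cy5 and at 0.047 with it in Cy3. The mean is not midway between these, so values were missing on some arrays and the dye does not fully cancel. Tgfb1, the ligand, was at 0.66 ± 0.73 and Bmpr1a, a receptor, at -0.72 ± 0.93.

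The threshold was passed by 0 of 18 other proteases and inhibitors, among them membrane ADAM proteases (median -0.05). Ctsl, a lysosomal protease, was at -0.70 ± 0.99, the protease inhibitor A2m at -2.63 ± 4.74 with mouse 3 at -9.54, and Bsg, an inducer of MMPs, at -0.27 ± 0.42. Among 20 intracellular and membrane partners of integrins, 1 passed it with a higher and 1 with a lower level (median -0.022). Src, a tyrosine kinase of adhesion sites, was at 2.29, 0.52, 1.20 and 0.52 in mice 1 to 4. Its mean was 1.13 ± 0.84 (SD, n = 4), with a limma adjusted p of 0.906. Src rests on 1 probe and was at 1.29 with Eps8KO RNA in Cy5 and at 1.36 with it in Cy3. The mean lies below both, so values were missing on some arrays and the dye does not fully cancel. Cd151, a tetraspanin that binds laminin receptors, was at -1.83, -0.60, -0.37 and -2.55, with a mean of -1.34 ± 1.03 (limma adjusted p = 0.906), and stood at -2.90 with Eps8KO RNA in Cy5 and at 0.22 with it in Cy3. Cd47, a membrane protein that associates with integrins, was at 0.62 ± 0.68.

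Marker genes of the cells of the liver were examined as ratios. Ratios give no level, so the tissue itself was not checked by the abundance of its markers. Of 6 hepatocyte markers 1 was higher at an unadjusted p under 0.05, Apoa1 at 0.34 ± 0.14 (limma adjusted p = 0.906; 1.32 in Cy5 and -0.64 in Cy3), with a list median of 0.0065 and Alb, albumin, at 0.30 ± 0.32. Of 5 stellate cell and fibroblast markers, 0 were higher or lower and the median was 0.046. For 6 endothelial markers, 5 macrophage markers and 4 leukocyte and platelet markers the counts were also 0, with medians of -0.28, 0.051 and 0.031. Of 4 bile duct markers 1 was lower, Krt7 at -1.51 ± 0.40 (limma adjusted p = 0.454), while Krt19, another keratin of bile ducts, was at 0.14 ± 0.20. Krt7 rests on 1 probe. Its Cy5 mean of -1.65 is that of mice 1, 3 and 4, and its Cy3 mean of -1.09 is the value of mouse 2. No mouse had both orientations of Krt7, so the dye does not cancel in its ratio. The part of cell composition in the ratios of Fn1 and Adamts1 was not tested.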

How the data were processed

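The values were deposited as a log2 ratio per spot and array. The authors' methods describe total intensity normalisation in MIDAS to a mean log2 ratio of 0, a signal-to-noise filter on either channel, a rule on bad spots and a test for consistent dye swaps. Array means of the deposited values ran from -0.39 to -0.18. Each array held 17968 to 18802 values for 20355 spots, of which 12367 were named through the platform table and the shift of 32. Each of the 8 value columns was used. Spot intensities were not used here, which leaves signal over background unknown, and precision is limited by how many arrays there are.

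Ratios were multiplied by -1 where the mutant RNA carried Cy3, and averaged first over both arrays of a mouse and then over the probes of a gene. Features measured in all 4 mice were tested for a mean of 0 with limma 3.58.1 (lmFit, eBayes; R 4.3.3), two-sided, with Benjamini-Hochberg adjustment over 15455 features. The fit was tested on simulated normal values of independent mice. These held no dye difference, missing arrays or values at the upper limit, so that test does not cover them. Other steps used Python 3.11.15, NumPy 2.4.6, pandas 2.3.3 and Matplotlib 3.10.9.

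The 2 arrays of a mouse count as 1 replicate. Genes given with all values are Fn1, Timp2, genes at an unadjusted p under 0.05 and those with the same direction in all 4 mice. Other genes are given by their mean, and from each related list the 3 genes with the smallest p are named. Itgb1, Itgav, Itgb4, Col1a2, Col3a1, Col4a1, Col4a2, Col18a1 and Col25a1 were given more values than this after they had been seen. So were Colgalt1, Ccn2, Krt7, Apoa1, Alb and Krt19. The genes and lists were chosen with earlier results of these data known. The alternatives were array medians set to 0, probes on all 8 arrays, features measured in 3 mice or more, removal of spots whose orientations differed by over 1, 1 orientation alone, a dye term with the mouse as a random block, 8 arrays as replicates, 1 feature per probe, no moderation, values at the upper limit left out, names with no shift, each mouse left out and, added after the data were seen, signs not turned.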

Additional observations from a re-analysis of the deposited data

Results flagged for a closer look

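A single mouse stood far from the other mice in 3 of 28 genes and list medians checked. Among unselected items chance would flag about 1 in 20. Many of these items were chosen by their results, so that rate is no reference for them. Timp2 was at 1.43 in mouse 1 and from 0.06 to 0.20 in the other mice. Mmp7 was at 8.61 in mouse 4, which rests on a value at the upper limit, and from 0.20 to 1.30 in the other mice. Ccn2 was at -2.10 in mouse 1 and from -0.51 to -0.42 in the other mice. Its orientation means lay on opposite sides of 0, at -1.24 in Cy5 and 0.047 in Cy3, with values missing on some arrays.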

How the results depend on the processing

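No gene of these families passed an adjusted p under 0.05 in any setting run with limma. The smallest was 0.0501, with Eps8KO RNA in Cy3 alone. The count at an unadjusted p under 0.05 was 2 in the report. Without spots whose orientations differed by over 1 it was 1 of 27 genes, beside 4.54% of all features. That setting left Fn1 with 3 mice and out of the fit. With 1 feature per probe it was 5 of 106 probes (1 higher, 4 lower), beside 5.46% of all features. The 4 lower were probes 1, 2, 3 and 5 of Fn1, so they stand for 1 gene. The count was 13 of 59 with Eps8KO RNA in Cy5 alone (1 higher, 12 lower), beside 17.3% of all features. With it in Cy3 alone it was 13 of 59 (11 higher, 2 lower), beside 21.7%. With signs not turned it was 20 of 65 (2 higher, 18 lower), beside 26.8%. The count was 2 to 4 with a mouse left out, with 4 without mouse 2, beside 4.39% to 5.04% of all features. The count at 1.6-fold was 0 in the report. It was 8 with Cy5 alone, 8 with Cy3 alone and 11 with signs not turned. In those settings 17.3%, 21.7% and 26.8% of all features passed the unadjusted p. The count at 1.6-fold was 1 with a value in at least 3 mice and 1 with values at the upper limit left out. With a mouse left out it was 0 to 2 (2 without mouse 1, 2 without mouse 2, 1 without mouse 3). The share of all features at 1.6-fold was not computed for these other settings, so the counts are not a result about these genes. The median over the genes, 0.043 in the report, was -0.0076 for probes on all 8 arrays, -0.23 with Cy5 alone, 0.30 with Cy3 alone, 0.0074 with the dye term, 0.0074 with 8 arrays as replicates, -0.021 with 1 feature per probe, -0.29 with signs not turned and 0.0035 to 0.064 with a mouse left out. Fn1 was above 0 with Cy5 alone (0.0445, adjusted p = 0.885) and with signs not turned (0.65, adjusted p = 0.103), and at -0.017 with names with no shift. With a mouse left out it was at -0.66 to -0.51, and its adjusted p over the alternatives ran from 0.103 to 0.999. With names with no shift, Adamts1 was at -0.76, Mmp17 at 0.43 and Lamb2 at 0.11. With signs not turned, Adamts1 was at -0.42, Timp2 at -0.20 and Lamb2 at 0.12. The cause of these changes was not tested. In the fit with a dye term, 3 of 54 genes had an unadjusted p under 0.05 (Adamts1 higher, Fn1 and Mmp17 lower), beside 6.63% of its features, with an adjusted p of 0.0873 for Adamts1 and 0.242 for Fn1. Its correlation between arrays of the same mouse was -0.00244, which treats them almost as independent. No paired analysis was possible because 1 group of mice was compared with 1 pool.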
